A study of Mus musculus with 10 samples.

Results

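Type I interferon response genes are genes that cells switch on when type I interferon reaches its receptor. Their transcripts were followed here in thymic invariant natural killer T (iNKT) cells, T cells whose nearly uniform receptor recognises lipids on CD1d, with and without Id3. The set is a list of 33 genes taken for their known induction by interferon, and the genes were not picked by a rule on the measured values. The list was, however, chosen with earlier results of these data known. Each gene is read by its own probe set of highest mean log2 signal. A probe set of its own was found for 31 of them, and all 31 passed the filter on dim signals, out of 11951 genes that passed in all. Ifi44 has no probe set that could be used here, and Isg15 is read only by a probe set that it shares with Gm9706. Ifi204 passed the filter only through WT arrays, so its difference between the genotypes cannot count as support for anything said of the list.

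The arrays hold RNA of cells sorted from the thymus of C57BL/6 mice at 6 weeks of age. All cells bound the CD1d tetramer and lacked CD24 and NK1.1, and CD44 divided them into stage 1, without it, and stage 2, with it. There were 2 arrays of wild-type (WT) cells and 2 of Id3KO cells at stage 1, and 3 of each at stage 2. Id3 is an inhibitor of the E protein transcription factors, and the labels give the genotype only as Id3KO, without the allele, the cells in which Id3 was lost or whether animals were pooled. The Id3 probe set read between 818 and 1289 on the WT arrays and between 54.2 and 69.8 on the Id3KO arrays, so every array matched its label. The labels call the replicates biological, and the p-values below measure the spread between these arrays.

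Type I interferons bind the receptor made of Ifnar1 and Ifnar2, whose kinases Jak1 and Tyk2 pass the signal to a complex of STAT proteins and Irf9. That complex binds the interferon-stimulated response element (ISRE) in the promoters of target genes, among them Irf7, which in turn amplifies the response. Thymic cells express such genes at a resting level without infection, and interferon gamma, acting through another receptor and the GAS element, induces an overlapping set.

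The promoters of 6 of the genes are shown because the letters of the response element differ between them and can be set beside the expression values. The sequences are the 250 bases before the annotated start, from RefSeq in the GRCm38.p6 build, written 5′ to 3′ on the gene's strand, with matches to the ISRE core in capitals. The core was searched as GAAANNGAA on both strands, so that its reverse complement also counts, and overlapping matches were counted separately. The windows are chr19:34583279-34583528 on the plus strand for Ifit3, chr19:34640639-34640888 on the plus strand for Ifit1, chr5:120907526-120907775 on the minus strand for Oas1a, chr7:141266425-141266674 on the minus strand for Irf7, chr5:114922990-114923239 on the plus strand for Oasl1 and chr5:114896684-114896933 on the plus strand for Oasl2.
Ifit3: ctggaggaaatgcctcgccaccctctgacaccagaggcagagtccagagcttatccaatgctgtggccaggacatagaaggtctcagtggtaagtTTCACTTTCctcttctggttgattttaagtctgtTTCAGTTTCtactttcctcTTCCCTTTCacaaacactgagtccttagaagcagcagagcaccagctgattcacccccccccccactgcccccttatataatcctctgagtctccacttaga
Ifit1: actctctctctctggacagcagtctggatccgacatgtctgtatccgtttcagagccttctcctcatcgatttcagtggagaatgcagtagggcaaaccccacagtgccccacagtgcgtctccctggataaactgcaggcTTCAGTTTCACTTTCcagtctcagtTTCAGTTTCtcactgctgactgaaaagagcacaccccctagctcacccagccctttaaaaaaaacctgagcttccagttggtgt
Oas1a: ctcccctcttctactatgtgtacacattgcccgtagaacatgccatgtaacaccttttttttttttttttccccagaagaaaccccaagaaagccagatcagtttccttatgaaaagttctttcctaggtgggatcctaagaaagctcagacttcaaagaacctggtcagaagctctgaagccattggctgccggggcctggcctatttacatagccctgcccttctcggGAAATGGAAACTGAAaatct
Irf7: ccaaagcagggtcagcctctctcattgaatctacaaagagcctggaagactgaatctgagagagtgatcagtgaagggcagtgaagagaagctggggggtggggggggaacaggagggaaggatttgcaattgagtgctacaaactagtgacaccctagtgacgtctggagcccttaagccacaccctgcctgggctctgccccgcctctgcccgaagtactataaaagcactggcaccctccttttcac
Oasl1: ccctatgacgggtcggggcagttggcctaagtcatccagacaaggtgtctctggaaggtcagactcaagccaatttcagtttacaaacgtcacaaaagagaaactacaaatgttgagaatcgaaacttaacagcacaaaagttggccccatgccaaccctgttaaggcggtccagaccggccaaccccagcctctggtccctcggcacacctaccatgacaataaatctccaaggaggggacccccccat
Oasl2: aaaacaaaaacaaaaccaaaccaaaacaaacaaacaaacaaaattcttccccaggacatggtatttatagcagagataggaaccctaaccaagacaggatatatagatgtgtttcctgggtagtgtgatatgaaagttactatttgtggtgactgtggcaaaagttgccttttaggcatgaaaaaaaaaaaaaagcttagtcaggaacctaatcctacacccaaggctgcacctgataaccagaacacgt
With the first transcribed base counted as 0, the 3 matches of Ifit3 begin at -155, -121 and -102, and the 3 of Ifit1 at -109, -103 and -84. Oas1a has 2 overlapping matches, which begin at -20 and -14. Irf7, Oasl1 and Oasl2 have no match in the 300 bases from 250 before to 50 after the start, which says only that these letters are not in that window.

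RefSeq windows of that length were found for 23 of the 33 genes, and none were at hand for Usp18, Dhx58, Zbp1, Oas2, Mx1, Mx2, Rtp4, Ifi27l2a, Parp14 and Ifi204. Of these 23 genes, 14 held at least 1 ISRE core (60.9%), against 9.75% of the 26994 genes in the table. At least 2 matches in 1 window were found in 7 of the 23, namely Isg15, Ifih1, Ifit1, Ifit3, Oas1a, Oas3 and Bst2, against 0.73% of all genes. The GAS letters TTCNNNGAA were found in 5 of the 23 (21.7%, against 9.55% of all genes). The E-box letters CAGCTG, the kind of site that E proteins bind, were found in 5 of the 23 (21.7%, against 18.3%), and CACCTG in 7 (30.4%, against 22.6%). A match is a description of the letters and not evidence of binding.

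Most type I interferon response genes read lower in Id3KO than in WT iNKT cells, by small amounts. At stage 2, 29 of the 31 genes had a log2 difference below 0, with a median of -0.30 and a range from -1.32 to 0.20, while 48.4% of all tested probe sets lay below 0 and their median was 0.01. At stage 1, 26 of the 31 lay below 0 with a median of -0.20, against 52.0% and a median of -0.01 for all probe sets. Differences in bulk samples of sorted cells cannot tell apart fewer cells of a kind and less RNA in each cell.

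A gene is said to have passed the test when its limma p-value, adjusted by Benjamini and Hochberg over all 25061 tested probe sets, was under 0.05. At stage 2, 5 genes fell (Ifit3, Mx1, Oasl1, Irf7 and Rtp4) and 0 rose, beside a background of 2.39% of all probe sets lower and 1.82% higher. An unadjusted p under 0.05 was reached by 18 genes lower and 1 higher in limma at stage 2 (61.3% of the list), where 2244 probe sets were lower and 1992 higher among all tested (16.9%). The count of 5 became 1 without WT stage 2 array 3 or Id3KO stage 2 array 1, 2 without WT stage 2 array 2, 3 without Id3KO stage 2 array 2, and 8 without Id3KO stage 2 array 3. Over all probe sets the count of lower calls, 598, became 264 to 491 in those 5 fits. The number of arrays limits the precision of these counts.

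At stage 1, with 2 arrays against 2, 1 gene fell (Ifi204) and 0 rose, beside 0.343% of all probe sets lower and 0.459% higher. Ifi204 passed the filter only through WT arrays, so this call does not count as support. In limma, 7 genes were lower and 1 was higher at an unadjusted p under 0.05 (25.8% of the list), against 1356 lower and 1273 higher among all probe sets (10.5%). The single call was lost without any of the 4 stage 1 arrays, and 2 genes passed without Id3KO stage 2 array 3, which enters only the estimate of the spread.

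When the genotype difference was averaged over both stages, 8 genes fell (Ifit3, Zbp1, Oasl2, Mx1, Oasl1, Ifi204, Rtp4 and Irf7) and 1 rose (Ifi27l2a), beside 2.79% of all probe sets lower and 2.18% higher. Of the 8, Ifi204 had to differ to be tested and does not count as support. This average uses the same 10 arrays as the comparisons within each stage and is not separate evidence. Its count of 8 became 3 without WT stage 2 array 3 and 5 without WT stage 2 array 2. Over all probe sets the count of lower calls, 698, became 450 and 492 in those fits. Leaving out a stage 1 array leaves 1 array in its group, and calls were lost in each such fit.

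The array values were also compared without a model. All 5 Id3KO arrays lay below all 5 WT arrays for 6 genes (Ifit3, Zbp1, Oasl2, Rtp4, Parp14 and Ifi204), beside 3.75% of all probe sets, and above them for 1 gene (Ifi27l2a), beside 3.1%. Within stage 2 the groups did not overlap for 15 genes lower and 1 higher in Id3KO, beside 10.5% and 10.9% of all probe sets. Within stage 1 they did not overlap for 17 genes lower and 2 higher, beside 22.8% and 18.7%, shares that are large because each group has 2 arrays. Ifi204 is in each of these lower counts and does not count as support.

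**Figure D1:**
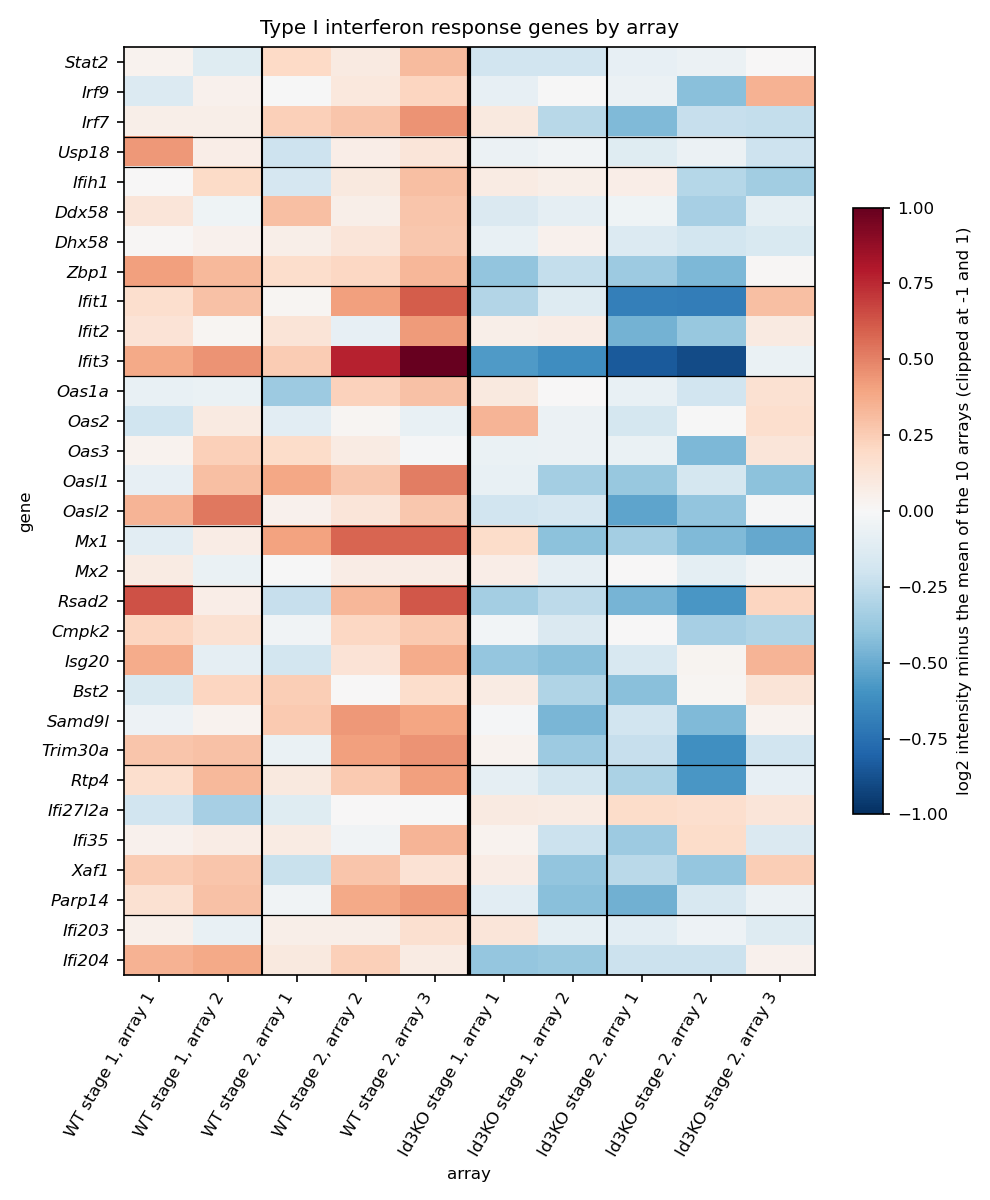
Log2 intensity of the 31 genes (rows, ordered by role) on the 10 arrays (columns, ordered by group), as the difference from each gene's mean over all arrays, red above and blue below. Blue prevails in the 5 Id3KO columns, Ifit3 has the deepest contrast, Ifi27l2a runs the other way, and Id3KO stage 2 array 3 is paler or redder than its 2 companions for Ifit1, Rsad2, Xaf1 and Irf9.

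Among the transcription factors of the response, Irf7 changed with the genotype at stage 2. Irf7, which amplifies interferon production and the response to it, read 252 and 252 on the WT stage 1 arrays and 285, 293 and 330 on the WT stage 2 arrays. In Id3KO cells it read 259 and 199 at stage 1 and 178, 206 and 205 at stage 2. The groups overlapped at stage 1 and did not overlap at stage 2, where WT was the higher. Its log2 difference was -0.63 ± 0.11 (SE) at stage 2 (limma adjusted p = 0.0186) and -0.15 ± 0.14 at stage 1 (limma adjusted p = 0.802). The stage 2 call was lost without WT stage 2 array 2 (limma adjusted p = 0.056), WT stage 2 array 3 (0.0777) or Id3KO stage 2 array 1 (0.0589). Averaged over both stages, the difference was -0.39 ± 0.09 (limma adjusted p = 0.0432). The averaged call was lost on leaving out any stage 2 array. It was also lost with no filter, with an intensity trend and robust prior, and with a replicate block.

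Stat2 and Irf9, the partners that carry the type I signal to DNA, did not pass the test in any comparison. Stat2 was dim, with intensities from 60.7 to 82.0 in WT and from 57.8 to 66.0 in Id3KO, and its log2 difference at stage 2 was -0.25 ± 0.08 (limma adjusted p = 0.145). A second Stat2 probe set was too dim to be tested. Its mean log2 value at stage 2 was 5.47 in WT and 5.69 in Id3KO, the other direction. Irf9 ranged from 212 to 271 in WT and from 175 to 298 in Id3KO, and both ends of the Id3KO range were stage 2 arrays.

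Ifit3 showed the largest difference of the 31 genes at both stages. The IFIT proteins bind viral RNA and block its translation. Ifit3 read 232 and 243 on the WT stage 1 arrays and 213, 304 and 392 on the WT stage 2 arrays. In Id3KO cells it read 120 and 116 at stage 1 and 99.3, 95.8 and 171 at stage 2. Every Id3KO array lay below every WT array, and Id3KO stage 2 array 3 stood well above the other 4 Id3KO arrays. The log2 difference was -1.32 ± 0.26 at stage 2, a level 2.50-fold lower (limma adjusted p = 0.0258), and -1.01 ± 0.32 at stage 1 (limma adjusted p = 0.269). At stage 2 the call was lost without WT stage 2 array 2 (limma adjusted p = 0.0844), WT stage 2 array 3 (0.0856), Id3KO stage 2 array 1 (0.0773) or Id3KO stage 2 array 2 (0.0815), with log2 differences from -1.30 to -1.11.

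Ifit1 and Ifit2 did not pass the test. Ifit1, whose promoter holds as many ISRE cores as that of Ifit3, read 280 and 305 at WT stage 1 and 252, 330 and 379 at WT stage 2. Its Id3KO values were 203 and 227 at stage 1 and 155, 154 and 307 at stage 2. The stage 2 groups overlapped through Id3KO array 3, and the log2 difference was -0.70 ± 0.26 (limma adjusted p = 0.203). Ifit2 ranged from 182 to 259 in WT and from 139 to 205 in Id3KO, and its log2 difference at stage 2 was -0.41 ± 0.17 (limma adjusted p = 0.249). At stage 1 that of Ifit2 was -0.01 ± 0.20 (limma adjusted p = 0.993).

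**Figure D2:**
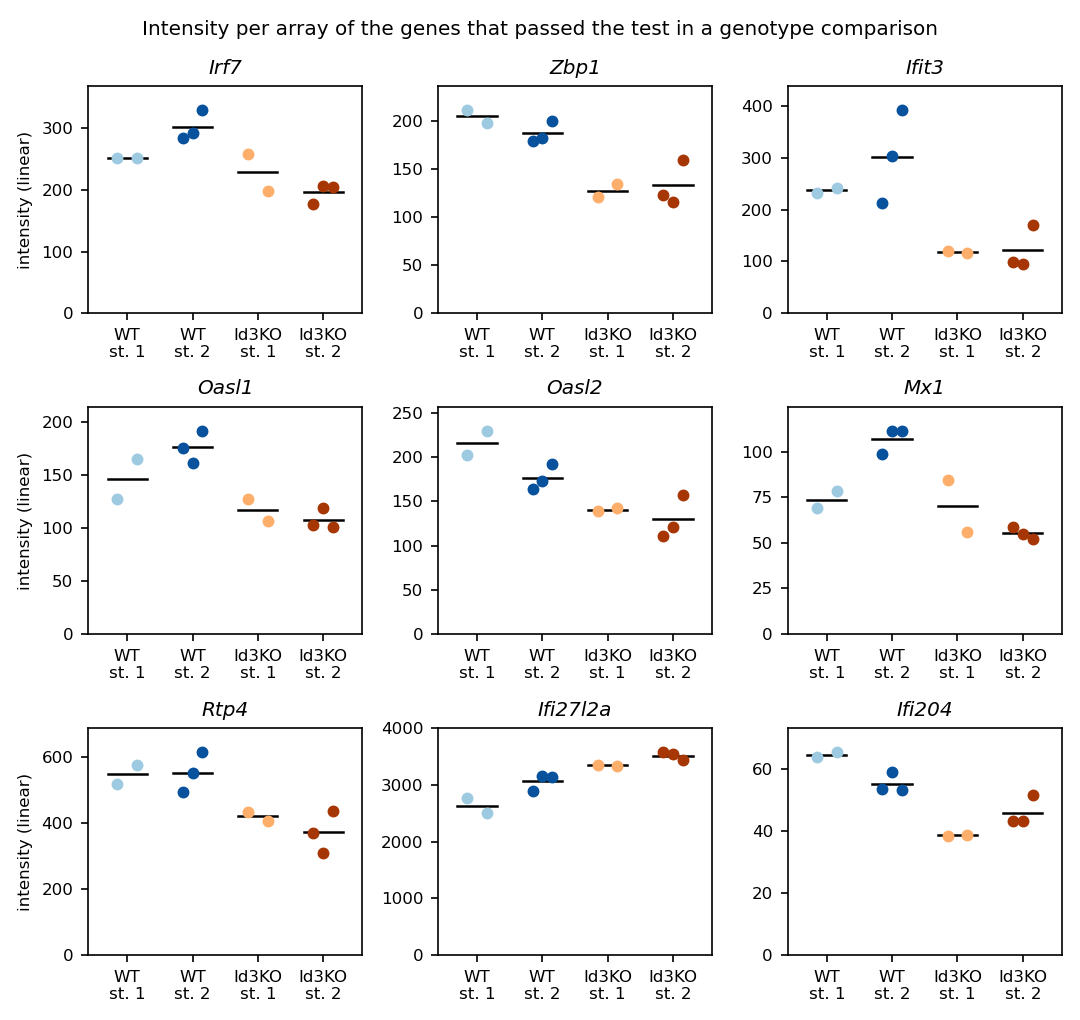
Intensity on each array (points, linear scale from 0) of the 9 genes that passed the test in a genotype comparison, with the mean of each group of 2 or 3 arrays as a line. Ifit3 falls from a mean of 303 in WT stage 2 cells to 122 in Id3KO stage 2 cells, the Mx1 groups overlap at stage 1 and not at stage 2, and Ifi27l2a is the gene with Id3KO above WT.

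Of the 5 OAS family genes, Oasl1 fell at stage 2 and the other 4 did not pass there. Oas1a, Oas2 and Oas3 make the messenger that activates RNase L. Oasl1 and Oasl2 are the OAS-like genes, and Oasl1 is known to restrain the translation of Irf7. Oasl1 read 127 and 165 at WT stage 1 and 176, 161 and 191 at WT stage 2. Its Id3KO values were 127 and 106 at stage 1 and 103, 119 and 101 at stage 2. The groups did not overlap at stage 2 and met at 127 at stage 1. The log2 difference was -0.71 ± 0.13 at stage 2 (limma adjusted p = 0.0172) and -0.32 ± 0.16 at stage 1 (limma adjusted p = 0.544). Without WT stage 2 array 3, Id3KO stage 2 array 1 or Id3KO stage 2 array 3 the stage 2 limma adjusted p was 0.0746, 0.0569 and 0.052.

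Oasl2 passed the test only in the average over both stages. It read 202 and 229 at WT stage 1 and 164, 173 and 192 at WT stage 2, against 139 and 142 at Id3KO stage 1 and 111, 121 and 158 at Id3KO stage 2. No Id3KO array reached the lowest WT array. The averaged log2 difference was -0.54 ± 0.10 (limma adjusted p = 0.0208), and the call was lost without any of the 4 stage 1 arrays or WT stage 2 array 3, with limma adjusted p from 0.0535 to 0.0923.

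Oas1a, Oas2 and Oas3 did not pass. Oas1a ranged from 569 to 894 in WT and from 640 to 813 in Id3KO, with a log2 difference at stage 2 of -0.09 ± 0.17 (limma adjusted p = 0.870, 95% interval from -0.47 to 0.29). Oas2 ranged from 181 to 221 in WT and from 184 to 262 in Id3KO, and its difference was 0.05 ± 0.13 at stage 2 (limma adjusted p = 0.918). For Oas3 the values ran from 148 to 176 in WT and from 109 to 162 in Id3KO, with a difference of -0.22 ± 0.14 at stage 2 (limma adjusted p = 0.510).

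Mx1 gave the smallest adjusted p of the list at stage 2. Mx1 and Mx2 are dynamin-like GTPases against viruses, and in C57BL/6 mice Mx1 is known to make no functional protein, so its transcript serves as a readout. Mx1 read 69.2 and 78.3 at WT stage 1 and 98.7, 111 and 111 at WT stage 2. In Id3KO cells it read 84.5 and 56.1 at stage 1 and 58.8, 54.7 and 52.1 at stage 2. WT stage 2 arrays stood above all others, and the Id3KO stage 2 arrays lay close to the filter level (log2 5.78, to be passed on at least 2 arrays). The log2 difference was -0.95 ± 0.14 at stage 2 (limma adjusted p = 0.00775) and -0.10 ± 0.18 at stage 1 (limma adjusted p = 0.925). The stage 2 call held in all 21 alternative settings, with limma adjusted p from 0.00222 to 0.0396. Averaged over both stages, the difference of Mx1 was -0.53 ± 0.11 (limma adjusted p = 0.0329). Among other settings, the averaged call was lost with no filter and with a replicate block. Leaving out WT stage 2 array 2 or 3 or any Id3KO stage 2 array lost it too. The difference between the stages in the genotype effect was -0.86 ± 0.23 and did not pass (limma adjusted p = 0.553). Mx2 ranged from 76.0 to 84.1 in WT and from 74.1 to 83.0 in Id3KO, with a log2 difference of -0.09 ± 0.08 at stage 2 (limma adjusted p = 0.647).

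Of the sensors of foreign nucleic acid, Zbp1 passed the test in the average over both stages. Zbp1 recognises Z-form nucleic acid and can start cell death. It read 212 and 199 at WT stage 1, 179, 183 and 200 at WT stage 2, 121 and 135 at Id3KO stage 1, and 124, 116 and 160 at Id3KO stage 2. The genotypes did not overlap, and the averaged log2 difference was -0.59 ± 0.10 (limma adjusted p = 0.00888), a call kept in all 20 alternatives. Within the stages it was -0.68 ± 0.15 at stage 1 (limma adjusted p = 0.093) and -0.50 ± 0.12 at stage 2 (limma adjusted p = 0.056). A second Zbp1 probe set also passed in the average (-0.37, limma adjusted p = 0.0434).

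Ddx58 (RIG-I), Ifih1 (MDA5) and Dhx58 (LGP2), the cytosolic sensors of viral RNA, did not pass. At stage 2 the Ddx58 probe set ran from 319 to 376 in WT and from 243 to 297 in Id3KO without overlap (log2 difference -0.37 ± 0.10, limma adjusted p = 0.093). The other tested Ddx58 probe sets gave -0.26 ± 0.12 and -0.24 ± 0.11 at stage 2. At stage 1 they gave -0.25 ± 0.15 and 0.37 ± 0.14, and neither passed. Dhx58 ran from 204 to 236 in WT and from 173 to 179 in Id3KO at stage 2, also without overlap (-0.30 ± 0.08, limma adjusted p = 0.0645). Ifih1 overlapped, with 307 to 424 in WT and 270 to 361 in Id3KO at stage 2 (-0.27 ± 0.14, limma adjusted p = 0.414).

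**Figure D3:**
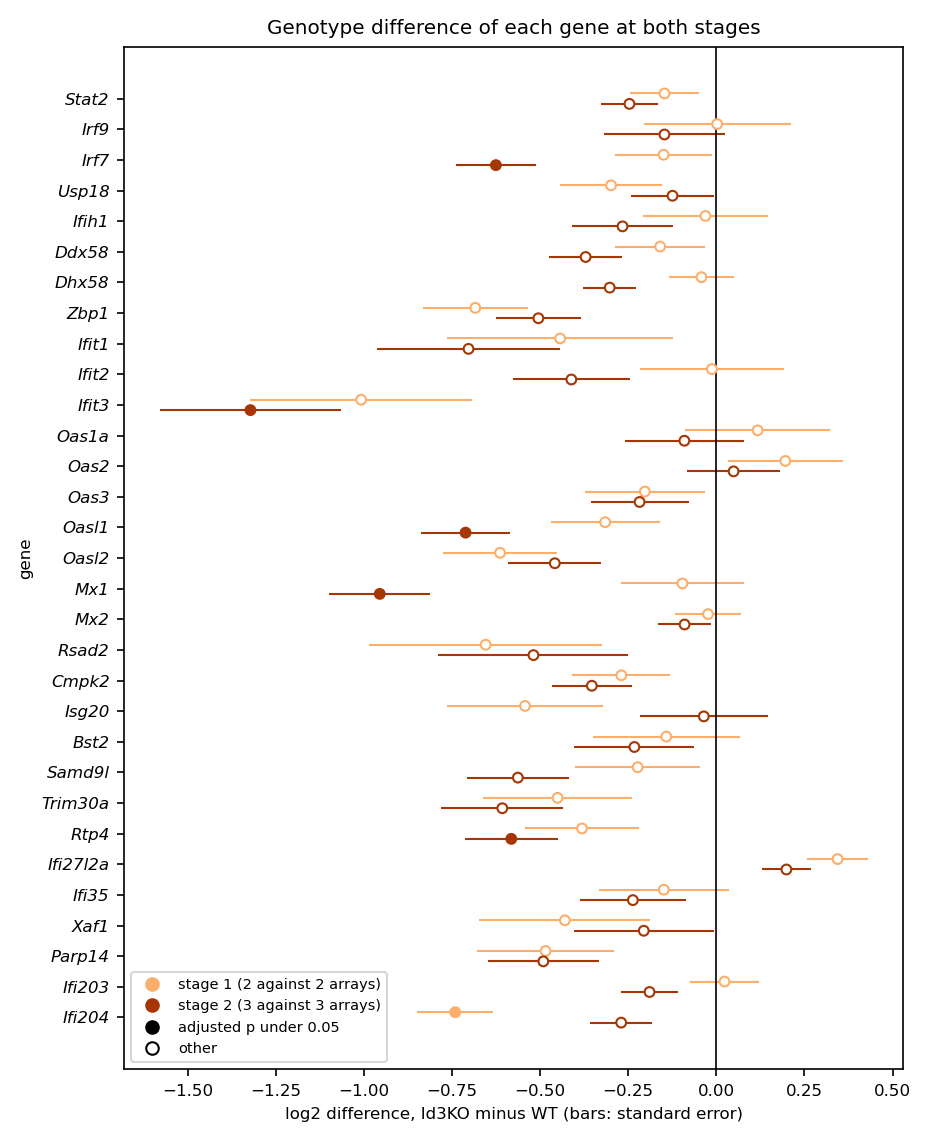
Log2 difference between Id3KO and WT of each of the 31 genes at stage 1 (light, 2 against 2 arrays) and stage 2 (dark, 3 against 3 arrays), with the standard error of the limma fit as bars. Filled points passed an adjusted p of 0.05, and they are Ifi204 at stage 1 and Irf7, Ifit3, Oasl1, Mx1 and Rtp4 at stage 2, all below 0.

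The other antiviral effectors all lay below 0 at both stages, and none of the 6 passed the test. Rsad2, which makes viperin, read 423 and 284 at WT stage 1 and 232, 343 and 418 at WT stage 2, against 214 and 226 at Id3KO stage 1 and 197, 182 and 316 at Id3KO stage 2. The stage 2 groups overlapped, and its log2 difference there was -0.52 ± 0.27 (limma adjusted p = 0.390). A second Rsad2 probe set did not overlap between the genotypes (-0.42 ± 0.12 at stage 2, limma adjusted p = 0.109). Cmpk2, the neighbour of Rsad2 that supplies nucleotides, had a difference of -0.35 ± 0.11 (limma adjusted p = 0.142). Samd9l, a restriction factor for viruses, ran from 649 to 732 in WT and from 399 to 555 in Id3KO at stage 2 without overlap (-0.56 ± 0.15, limma adjusted p = 0.0714). Trim30a, a regulator of inflammatory signalling, ran from 450 to 643 in WT and from 308 to 414 in Id3KO at stage 2, again without overlap (-0.61 ± 0.17, limma adjusted p = 0.0993). A second Trim30a probe set passed at stage 2 (-0.50 ± 0.11, limma adjusted p = 0.0463). Bst2 (tetherin), which holds budding virus at the cell surface, overlapped at both stages (-0.23 ± 0.17 at stage 2, limma adjusted p = 0.582).

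Isg20, an RNA exonuclease, did not overlap between the genotypes at stage 1 and overlapped at stage 2, as did Rsad2 and Cmpk2. It read 712 and 518 at WT stage 1 against 421 and 413 at Id3KO stage 1, a log2 difference of -0.54 ± 0.22 (limma adjusted p = 0.433). At stage 2 it read 484, 605 and 713 in WT and 493, 563 and 698 in Id3KO, a difference of -0.04 ± 0.18 (limma adjusted p = 0.961). Its change in genotype effect between the stages was 0.51 ± 0.29 and did not pass (limma adjusted p = 0.757).

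Isg15, the ubiquitin-like protein that is attached to others during the response, can be followed only through the probe set shared with Gm9706. That probe set read from 167 to 199 in WT and from 147 to 186 in Id3KO, with a log2 difference of -0.11 ± 0.10 at stage 2 (limma adjusted p = 0.679). Usp18, the protease that removes Isg15 and restrains the receptor, read from 105 to 164 in WT and from 105 to 118 in Id3KO (-0.12 ± 0.12 at stage 2, limma adjusted p = 0.696).

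Rtp4 and Ifi27l2a passed in opposite directions. Rtp4, a chaperone of receptors in the Golgi, read 518 and 577 at WT stage 1, 493, 552 and 614 at WT stage 2, 433 and 407 at Id3KO stage 1, and 371, 309 and 435 at Id3KO stage 2. All Id3KO arrays were below all WT arrays. Its log2 difference was -0.58 ± 0.13 at stage 2 (limma adjusted p = 0.0465). This call was lost on leaving out any single array except Id3KO stage 2 array 3. It was also lost with no filter, with quantile normalization and with only the arrays compared. Ifi27l2a, a small membrane protein of the response, read 2762 and 2507 at WT stage 1, 2894, 3152 and 3142 at WT stage 2, 3347 and 3333 at Id3KO stage 1, and 3572, 3534 and 3434 at Id3KO stage 2. All Id3KO arrays were above all WT arrays, and the averaged log2 difference was 0.27 ± 0.06 (limma adjusted p = 0.0264). That call did not survive the loss of WT stage 1 array 2 (limma adjusted p = 0.110), WT stage 2 array 2 (0.0535) or 3 (0.0556), Id3KO stage 1 array 1 (0.0918) or 2 (0.0749), or Id3KO stage 2 array 1 (0.0577) or 2 (0.053). Both other tested probe sets of Ifi27l2a also lay above 0 in the average (0.39 and 0.34) and did not pass.

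Parp14, Xaf1 and Ifi35 complete that group, and none passed. Parp14, an ADP-ribosyltransferase, read from 525 to 723 in WT and from 384 to 516 in Id3KO without overlap, with an averaged log2 difference of -0.49 ± 0.13 (limma adjusted p = 0.0654). A second Parp14 probe set overlapped, with 88.8 to 122 in WT and 79.3 to 118 in Id3KO (averaged -0.11 ± 0.11, limma adjusted p = 0.740). Of 10 other tested probe sets of members, 7 lay below 0 in the average and 3 above, and 2 passed as lower. Xaf1 overlapped at stage 2 (-0.21 ± 0.20, limma adjusted p = 0.702), as did Ifi35 (-0.24 ± 0.15, limma adjusted p = 0.510).

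The PYHIN proteins sense DNA, and their genes lie in a cluster of near-identical copies, so their probe sets may read more than 1 of them. Ifi204 read 63.8 and 65.3 at WT stage 1, 53.6, 59.0 and 53.1 at WT stage 2, 38.4 and 38.8 at Id3KO stage 1, and 43.1, 43.1 and 51.5 at Id3KO stage 2. Only 3 arrays, all WT, were above the level used for the filter, so the probe set had to differ to be tested. Its log2 difference was -0.74 ± 0.11 at stage 1 (limma adjusted p = 0.0217) and -0.27 ± 0.09 at stage 2 (limma adjusted p = 0.148). Leaving out a stage 1 array gave limma adjusted p from 0.0991 to 0.156 at stage 1. Ifi203 read from 78.6 to 92.4 in WT and from 75.6 to 90.0 in Id3KO (-0.19 ± 0.08 at stage 2, limma adjusted p = 0.279). A probe set shared by Ifi204, Mndal, Ifi211 and Ifi205 fell at stage 2 by 1.06 ± 0.23 on the log2 scale (limma adjusted p = 0.0396), and one shared by Ifi203, Ifi203-ps and other copies fell by 0.84 ± 0.18 (limma adjusted p = 0.0406). Another probe set shared by Ifi203 and Ifi203-ps did not pass (-0.76 ± 0.27, limma adjusted p = 0.172).

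Between stages no gene of the list passed the test. From stage 1 to stage 2 in WT, 20 of the 31 genes lay above 0 with a median of 0.07, and 0 passed in either direction, beside 0.00399% of all probe sets lower and 0.012% higher. In limma, 1 was lower and 4 were higher at an unadjusted p under 0.05 (16.1% of the list, against 8.06% of all probe sets), and Mx1 was the furthest at 0.54 ± 0.16 (limma adjusted p = 0.451). In Id3KO, 11 of the 31 lay above 0 with a median of -0.07, and 0 passed, beside 0% of all probe sets in each direction, with 0 lower and 2 higher at an unadjusted p under 0.05 in limma (6.45%, against 4.51% of all). The difference of the genotype effect between the stages also gave 0 calls, beside 0% of all probe sets in each direction, with a median of -0.15 and with 2 lower and 1 higher at an unadjusted p under 0.05 in limma (9.68%, against 7.07% of all). A genotype call at stage 2 and its absence at stage 1 is therefore not shown to be a difference between the stages.

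The arrays of 1 group did not carry the list equally. The median over the 31 genes of the log2 deviation from each gene's mean was 0.08 and 0.08 on the WT stage 1 arrays, 0.06, 0.13 and 0.30 on WT stage 2, -0.06 and -0.18 on Id3KO stage 1, and -0.22, -0.29 and -0.02 on Id3KO stage 2. WT stage 2 array 3 was the highest of its 3 arrays for 21 of the 31 genes, and Id3KO stage 2 array 3 was the highest of its 3 for 19. Over all tested probe sets those arrays were the highest for 31.1% and 34.5%. Id3KO stage 2 array 3 stood above the mean of its 2 companions by 0.99 for Ifit1, 0.81 for Ifit3, 0.74 for Rsad2 and 0.59 for Irf9 on the log2 scale. That difference was -0.12 for Mx1, -0.13 for Oasl1 and 0.10 for Irf7.

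That array and Id3KO stage 1 array 1 also had the lowest values of the Y-linked gene Eif2s3y, 51.0 and 32.4, where the other 8 arrays read from 144 to 316. They had the highest values of Xist, 2870 and 3185, where the others read from 1484 to 2221. Without these 2 arrays, a fit added after the values were seen, the members' median log2 difference was -0.36 at stage 2 and -0.33 at stage 1. That fit leaves 1 Id3KO array at stage 1, so the stage 1 value rests on a single array and no counts of calls are given. The part of sex in the differences was not tested.

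**Figure D4:**
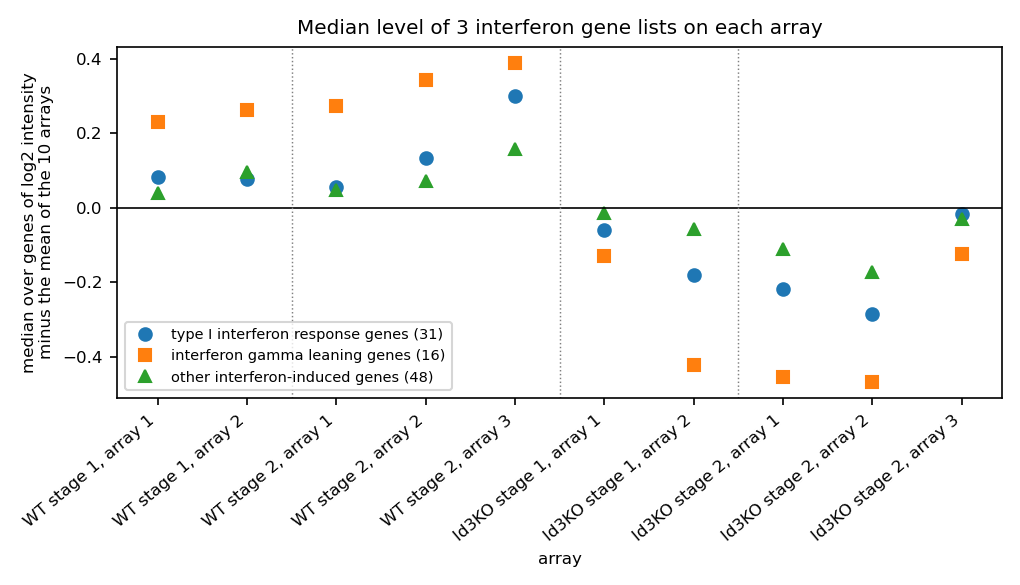
Median over the genes of each of 3 lists of the log2 intensity minus the gene's mean over the 10 arrays, for each array, with dotted lines between the groups. The type I interferon response genes lie between 0.06 and 0.30 on the WT arrays and between -0.29 and -0.02 on the Id3KO arrays, and the interferon gamma leaning genes lie further from 0 in the same directions on all 10 arrays.

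Of 16 tested genes that lean towards interferon gamma, 6 fell at stage 2 and 0 rose, beside 2.39% and 1.82% of all probe sets. At stage 2, 15 of the 16 lay below 0 (93.8%, against 48.4% of all probe sets), with a median log2 difference of -0.70. The 6 that fell are named here. They were the guanylate-binding protein genes Gbp6 (-1.59 ± 0.16) and Gbp2 (-1.08 ± 0.20), the immunity-related GTPase genes Igtp (-1.04 ± 0.17), Irgm2 (-0.97 ± 0.13) and Ifi47 (-0.69 ± 0.10), and the adhesion molecule gene Icam1 (-1.07 ± 0.16), with limma adjusted p from 0.00133 to 0.021. At stage 1, 1 of the 16 fell, Gbp6, by 1.45 ± 0.19 on the log2 scale (limma adjusted p = 0.0154). Gbp6 read 310 and 312 at WT stage 1, 267, 361 and 347 at WT stage 2, 124 and 105 at Id3KO stage 1, and 86.9, 125 and 113 at Id3KO stage 2, without overlap of the genotypes. Many of these genes answer to both kinds of interferon, and the lists were not tested against each other. ISRE cores were found in the promoters of 12 of 15 genes of this list (80.0%), and GAS letters in 7 of 15 (46.7%).

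Among 48 further interferon-induced genes, 6 fell and 1 rose at stage 2, beside 2.39% and 1.82% of all probe sets. The list median was -0.22. Those that fell were Tapbp, Tap1, Ly6e, Dtx3l, Ifitm3 and Tor3a, with log2 differences from -0.56 to -0.34. Tap1 and Tapbp load peptides onto MHC class I, Dtx3l is a ubiquitin ligase that works with the PARP family, and Ifitm3 blocks viral entry. Plac8 rose, by 0.52 ± 0.09 (limma adjusted p = 0.0119).

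The genes that make and receive the interferon signal were followed as well. Of 9 ligand probe sets, Ifnb1 and 5 interferon alpha family probe sets were above the filter level on no array, while Ifna1 and Ifna5 were above it on 2 arrays each and Ifnz on all 10. Of these 3 tested ligands none passed at stage 2, nor at an unadjusted p under 0.05 in limma. For the type I receptor, Ifnar1 had a log2 difference of -0.23 ± 0.15 (limma adjusted p = 0.520) and Ifnar2 of -0.44 ± 0.16 (limma adjusted p = 0.196) at stage 2. Of the 8 receptor and kinase genes, 3 fell and 0 rose at stage 2, beside 2.39% and 1.82% of all probe sets. They included Ifngr2 (-0.76 ± 0.12, limma adjusted p = 0.0122) and Ifngr1 (-0.72 ± 0.15, limma adjusted p = 0.0286), the chains of the interferon gamma receptor. The other was Il10rb (-0.37 ± 0.07, limma adjusted p = 0.0293), which serves the receptors for IL-10 and interferon lambda. Jak1 and Tyk2 did not pass, at 0.03 ± 0.11 and -0.32 ± 0.13.

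Irf1, the factor that interferon gamma induces most directly, was the 1 of 7 further STAT and IRF genes that fell at stage 2 (-0.58 ± 0.11, limma adjusted p = 0.0219). Socs3, an inhibitor of cytokine receptors, was the 1 of 13 negative regulators that fell, with -2.29 ± 0.17 (limma adjusted p = 0.000454), while Socs1 was at -0.15 ± 0.08 (limma adjusted p = 0.418). Of 11 sensor adaptors and kinases, Trim25, which activates RIG-I, fell (-0.54 ± 0.13, limma adjusted p = 0.0498) and Tmem173, which encodes STING, rose (0.30 ± 0.07, limma adjusted p = 0.0499) at stage 2. Over all probe sets, 2.39% were lower and 1.82% higher at stage 2. A single call in lists of 7 to 13 genes is not read as a result about the list.

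**Figure D5:**
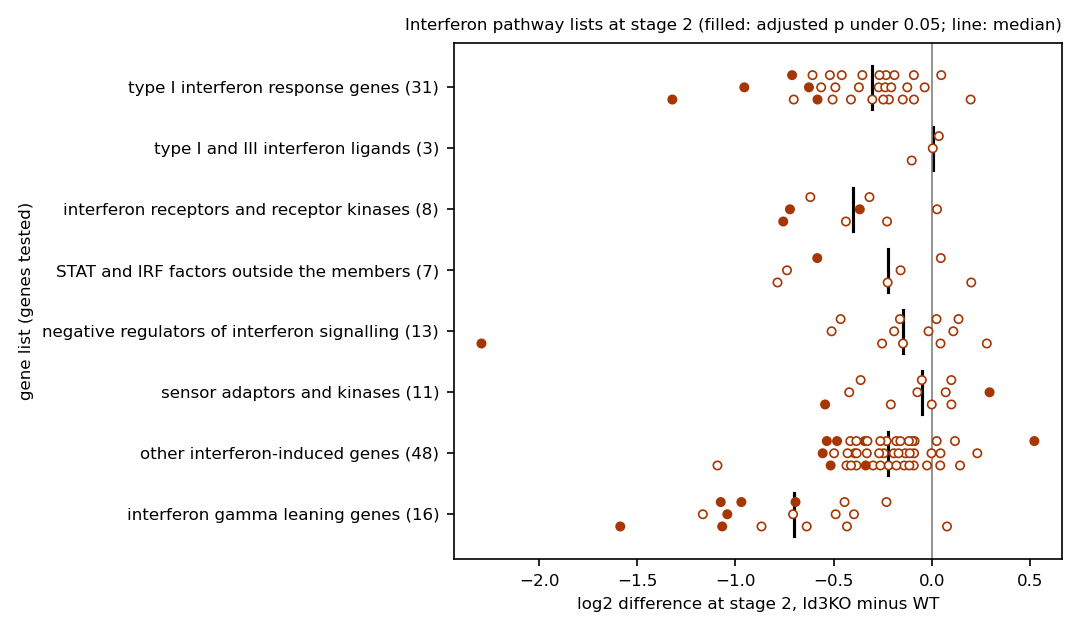
Log2 difference between Id3KO and WT at stage 2 of every tested gene of the type I interferon response list and of 7 pathway lists (points, filled where the adjusted p was under 0.05), with the median of each list as a line. Medians run from -0.70 for the interferon gamma leaning genes to 0.01 for the ligands, and that of the type I interferon response genes is -0.30.

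Markers of iNKT subsets were counted at stage 2 as well. Over all probe sets, 2.39% were lower and 1.82% higher at that stage. Of 8 tested genes that mark the interleukin-17 subset, 7 fell. The summed intensity of the 8 ran from 2828 to 4715 on the WT stage 2 arrays and from 649 to 1205 on the Id3KO stage 2 arrays. Among 10 markers of the interferon gamma producing subset, 6 fell, with sums over the 10 from 3972 to 4031 in WT and from 1343 to 1758 in Id3KO. The 6 included Tbx21 (-1.79 ± 0.19, limma adjusted p = 0.00185) and Ifng itself (-0.69 ± 0.09, limma adjusted p = 0.00398). The Ifng probe set was above the filter level only on the WT stage 2 arrays, so its call does not count as support. Il17a was above the filter level on no array. Of 8 tested markers of the interleukin-4 producing subset, Il13 fell and Plac8 rose, 6 failed the test, and the list median was -0.16. The part of these subset markers in the difference of the interferon genes was not tested.

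Markers of other cells that could have entered the sort were partly detected. Of 9 plasmacytoid dendritic cell genes, 8 were tested, and their summed intensity ran from 1558 to 1679 on the WT stage 2 arrays and from 3228 to 3497 on the Id3KO stage 2 arrays, a sum that includes Ccr9. At stage 2, 3 of the 8 lay below 0 and 5 above, with a median log2 difference of 0.04. Only Ccr9 passed, as higher, beside 2.39% of all probe sets lower and 1.82% higher. The sum therefore does not stand for the list as a whole. Irf8, Klk1, Cox6a2, Pacsin1 and Ccr9 were above the filter level on all 10 arrays, Ly6d on 9 and Tcf4 on 3. Spib read from 40.2 to 51.8 over the 10 arrays, never above the filter level, and Siglech was above it on 3 of them with a highest value of 58.1. Itgam, Itgax, Adgre1 and Tyrobp for myeloid cells, Ms4a1 and Ebf1 for B cells, and Rag1 and Dntt for immature thymocytes were above the filter level on no array. Other markers of those lists were above it, with 7 myeloid, 5 B cell, 7 thymic epithelial and 4 double-positive thymocyte genes tested. Those with a genotype difference at stage 2 were Ccr9 (1.55 ± 0.10, limma adjusted p = 0.000211) and Ighm (0.88 ± 0.15, limma adjusted p = 0.0125), both higher in Id3KO, and Cd1d1 (-0.78 ± 0.17, limma adjusted p = 0.0436). Their part in the difference of the interferon genes was not tested either.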

How the data were processed

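RNA of sorted thymic iNKT cells was amplified in 2 cycles and hybridised to Affymetrix mouse whole-genome arrays, per the labels' protocols. The deposited values are linear intensities per probe set, made by the authors with RMA per the submitters' processing notes, with no version given in the sources used here. The design for the tests assumed log2 values, so log2 was taken here. Of 45037 probe sets, 25061 exceeded log2 5.78 on at least 2 of the 10 arrays and were fitted together in limma 3.58.1 (R 4.3.3) with 1 mean per group and no covariate, with Benjamini-Hochberg adjustment over the whole set. Error values after ± are standard errors of that fit. Array medians ran from 54.8 to 55.5, and arrays carry no read depth, so their number limits the precision. The fit was tested on simulated data. Named were all members, genes of the other pathway lists that passed a test, and markers; Ifnar1, Ifnar2, Jak1, Tyk2, Socs1 and the ligands were named outside that rule, for their roles and after their values were seen. The members and lists were chosen with earlier results of these data known. The closing section gives the effect of 21 alternatives.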

Additional observations from a re-analysis of the deposited data

Results flagged for a closer look

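Dhx58 and Ifi204 moved in opposite directions between the stages in the genotypes, with no overlap of the arrays within either genotype. Such separation of the stages was common. Of all 25061 probe sets, 3618 were lower and 2945 higher at stage 2 without overlap in WT, and 2232 and 2369 in Id3KO. How many did so in opposite directions was not counted. Ifi204 passed the filter only through WT arrays. For Dhx58 the log2 difference of stage 2 from stage 1 was 0.12 in WT and -0.14 in Id3KO, and the difference between them did not pass (limma adjusted p = 0.713). For Ifi204 it was -0.23 in WT and 0.24 in Id3KO, and that difference did not pass either (limma adjusted p = 0.615).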

How the results depend on the processing

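The median of the members stayed below 0 in every genotype comparison under all alternatives run, and no gene that passed changed sign. At stage 2 the 5 lower calls became 11 with array weights and 3 with only the arrays compared. Over all probe sets the lower calls went from 598 to 751 and 333 in these fits. The 5 became 9 with each gene's probe sets averaged and 8 with 1 probe set per gene fitted, beside 474 of 10990 and 515 of 11942 genes. With a stage 2 replicate left out they became 1 to 8, beside 264 to 491 over all probe sets. At stage 1 the single lower call, Ifi204, became 0 with a stricter filter (log2 6.5), beside 87 of 15216 probe sets. That filter removed Ifi204, whose highest value was 65.3, so the gene was not tested there. The count became 0 with only the arrays compared, beside 12 of 25061, and 2 with each gene's probe sets averaged, beside 98 of 10990 genes. Leaving out a stage 1 array leaves 1 array in its group, and the call was lost in each such fit. The stage 1 count of higher calls became 1 with an intensity trend and robust prior, beside 124 of 25061 probe sets. The stage 1 median ran from -0.33 to -0.18 over the left-out replicates. In the average of both stages the 8 lower calls became 5 with no filter, beside 613 of 45037 probe sets, against 698 of 25061 in the main fit. With a stage 2 replicate left out the lower calls became 3 to 9, beside 450 to 681 over all probe sets, and the 1 higher call 0 to 1. Without the 2 Id3KO arrays of lowest Eif2s3y, an alternative chosen after seeing the data, the stage 1 median was -0.33. That fit leaves 1 Id3KO array at stage 1, so no counts of calls are given for it. Ifi204 was not tested under the stricter filter, and fits that leave arrays out have fewer arrays. The cause of the other changes was not tested.

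Over 13 pairs of arrays with the same replicate number, the correlation of deviations from the group means ran from -0.31 to 0.13. In a group of 2 arrays the deviations mirror each other. These values therefore cannot show whether the numbers pair the arrays. With a replicate block, 0 genes were lower at stage 1, 6 at stage 2 and 6 in the average, where 0 were higher. Over all probe sets 45, 457 and 564 were lower, and 448 were higher in the average. The members' median stage difference in WT went from 0.07 to -0.03.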
